A study of Mus musculus with 3 samples.

Results

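The matrix metalloproteinases (Mmp), the ADAM and ADAMTS proteases and their tissue inhibitors (Timp) were described across liver, stomach and lung tumours of mice made transgenic for the enzyme AID (activation-induced cytidine deaminase), which changes cytosines in DNA. Members were all non-control probes whose gene name on the array starts with Mmp, Adamts, Adam or Timp and then a digit. This gave 123 probes for 70 genes, out of 41174 probes for 27677 genes: 21 Mmp genes with 28 probes, 17 Adamts genes with 39, 28 Adam genes with 50 and 4 Timp genes with 6. The name alone decided membership of a probe.

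RNA was compared on 2-colour Agilent mouse arrays, in which the RNAs of a pair carry the dyes Cy3 and Cy5 and are read from the same spots. The liver array set a liver tumour of an AID Tg mouse beside nontumour liver of that mouse, and the stomach array a gastric tumour beside nontumour stomach of its bearer, another comparison within a transgenic animal. In lung, the tumour came from an AID Tg mouse and the normal tissue from a Wt (wild-type) mouse, so the genotype and the tumour changed together and cannot be told apart. Each organ had 1 array, with no replicate and no dye exchange, so no test was made and no p-value is given. The labels name neither the promoter of the transgene nor the age or strain of the mice. For lung, scanner values were not analysed here, and only the authors' deposited lists of spots at least 2-fold apart were used.

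The sources disagree on the direction of the ratios. According to the sample labels the tumour RNA carried Cy3, but in the authors' deposited table the lists headed as up in cancer hold only spots brighter in Cy5. Ratios are given as log2(Cy5/Cy3), and a gene is called brighter in Cy5 or in Cy3. Going by those headings, the tumour was likely in Cy5. By the labels Cy5 held the nontumour or normal tissue, and every sign turns. All arrays had the same dye orientation, so a dye bias of a probe cannot be told apart from a difference between tissues. Signals of a channel are normalized log2 intensities and are never compared between genes. The error of a gene is the standard deviation (SD) between its probes or, for a gene read by 1 probe, the error of the log2 ratio in the scanner software, and covers measurement only.

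Mmp enzymes are secreted or membrane-bound zinc proteases that cut collagens, proteoglycans and other matrix proteins, and most are made as inactive precursors. Adam proteins are membrane-anchored, and several of them shed growth factors and receptors from the cell surface, while Adamts proteins are secreted and bind matrix. The Timp proteins block the active site of these enzymes, and Timp3, unlike the others, stays bound to matrix. Timp3 also inhibits several Adam and Adamts members.

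The arrays each held 41534 gene spots, with raw median signals of 152 to 180 against 67.7 to 127 over negative control spots. Of the 70 member genes, 66 were measured in liver and 65 in stomach, which means well above background in at least 1 channel. Adam22, Adam7 and Adamts13 were measured on neither, Adam12 not on the liver array, and Adam6 and Mmp8 not on the stomach array. The scanner error of a member probe had a median of 0.88 log2 units in liver and 1.08 in stomach, and ranged from 0.17 to 10.4 in liver. The scanner software's ratio was smaller than its error for 60 of 66 genes in liver and 54 of 65 in stomach. The tissues matched their labels by markers: the summed signal of hepatocyte markers was 63670 and 54610 in Cy3 and Cy5 of the liver array against 2269 and 1020 on the stomach array, and that of gastric gland markers 318310 and 53140 on the stomach array against 1650 and 1742 on the liver array.

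In liver, all 4 Timp genes were brighter in Cy5 by 1.40 to 1.52 times, and none of the 66 measured members was 2-fold apart. The protease families themselves lay near 0. The Timp median was 0.55, against 0.04 for Mmp, 0.03 for Adamts, 0.03 for Adam and 0.01 over all 25606 genes measured, of which 0.152% were brighter in Cy5 by 2-fold or more and 0.0703% brighter in Cy3. The small Adam median turned to -0.02 with median centring in place of loess.

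Timp4, the member of the family with the most restricted tissue pattern, had signals of 8.65 in Cy3 and 9.26 in Cy5, a log2 ratio of 0.61 (scanner error 0.20). Timp3 had 7.88 and 8.43, a ratio of 0.56 (error 0.26). Timp2, which also takes part in the activation of pro-Mmp2 at the cell surface, had 8.07 and 8.62, a ratio of 0.55 (error 0.23). Timp1, an inhibitor that cells secrete in response to inflammation, had 7.43 and 7.92, a ratio of 0.49 (SD 0.12 between 3 probes). The inhibitors thus lay close together, from 0.49 to 0.61, a span below the scanner error of each single-probe gene. Counted from the most Cy5-bright gene, Timp4 was the 196th, Timp3 the 242nd, Timp2 the 253rd and Timp1 the 358th of 25606. The ratios kept their side under each of the 6 alternatives tried, with 0.49 to 0.91 for Timp1 and 0.61 to 0.90 for Timp4.

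The authors' deposited liver lists, which hold spots with a scanner p-value of at most 0.00991, named 4 of the 123 member probes, 1 for each Timp gene, all brighter in Cy5, where 1.25% of all gene spots are listed, and none brighter in Cy3, where 1.04% are. No Mmp, Adamts or Adam probe was in the liver lists. In the deposited values, Timp3 was 1.74-fold, Timp4 1.64-fold, Timp1 1.64-fold and Timp2 1.55-fold brighter in Cy5.

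Markers of fibroblasts, which make matrix and several Timp proteins, moved with the Timp genes on the liver array. All 8 of 8 fibroblast markers had ratios above 0, with a median of 0.36 and a summed signal of 2807 in Cy3 and 4116 in Cy5, led by Col1a2 (0.66), Dcn (0.64) and Pdgfrb (0.63). Macrophage markers had a median of 0.03, with summed signals of 1602 and 1600, and neutrophil markers 0.17, with 1748 and 2656, where 7 of 8 lay above 0. Endothelium markers had a median of 0.14, with 5 of 7 above 0, and smooth muscle markers 0.07, with 4 of 6 above 0. Hepatocyte markers had a median of -0.17, with 4 of 5 measured below 0. The part of any of these cells in the Timp ratios was not tested. In tissue pieces such as these, fewer cells of a type and less RNA per cell cannot be told apart.

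Among the Mmp genes in liver, 15 of 21 measured had ratios above 0, against 52.9% of all genes, but 19 of 21 lay within 0.2 log2 units of 0. The highest was Mmp23, a membrane-anchored member, at 0.24 (error 0.88), and the lowest Mmp15, a membrane-type member, at -0.10 (error 1.88). Mmp2, the gelatinase of fibroblasts, had 7.97 in Cy3 and 7.98 in Cy5, and Mmp14, the membrane protease that activates pro-Mmp2, had 9.04 and 9.08 (ratio 0.04, SD 0.31 between 2 probes). Mmp9, the gelatinase of white blood cells, had 7.21 and 7.19 (ratio -0.03, SD 0.12 between 2 probes). These proteases differed between channels by less than their errors, while each Timp differed by more than the error given for it. For Timp1 that error is the SD between probes. Its mean scanner error was 0.57, beside a scanner software's ratio of 0.91. The 2 Mmp14 probes were split, at 0.25 (scanner error 0.17) and -0.18 (scanner error 0.31), so the brighter probe alone exceeded its error.

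Of the Adamts genes in liver, 12 of 16 measured were above 0. Adamts15 (0.32, error 0.31) was the highest and the aggrecanase Adamts4 stood beside it (0.32, error 0.84). Adamts5, a relative of Adamts4, had 0.21 (SD 0.08 between 2 probes, with a mean scanner error of 1.56) and 0.04 with median centring. Adamts6 was the lowest at -0.54, with an error of 2.15 that exceeds it. Of the Adam genes, 14 of 25 were above 0. The lowest was Adam25, a testis gene, at -0.15 (SD 0.11 between 2 probes, with a mean scanner error of 1.64). The highest was Adam33 at 0.37 (SD 0.16 between 3 probes, with a mean scanner error of 2.15). Adam33 had signals of 6.07 and 6.44, near the lower end of the scale, and its ratio ran from 0.13 with median centring to 1.49 with the scanner software's ratio. The sheddases Adam17 and Adam10 had -0.11 (SD 0.11 between 2 probes) and -0.10 (error 2.52).

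**Figure D1:**
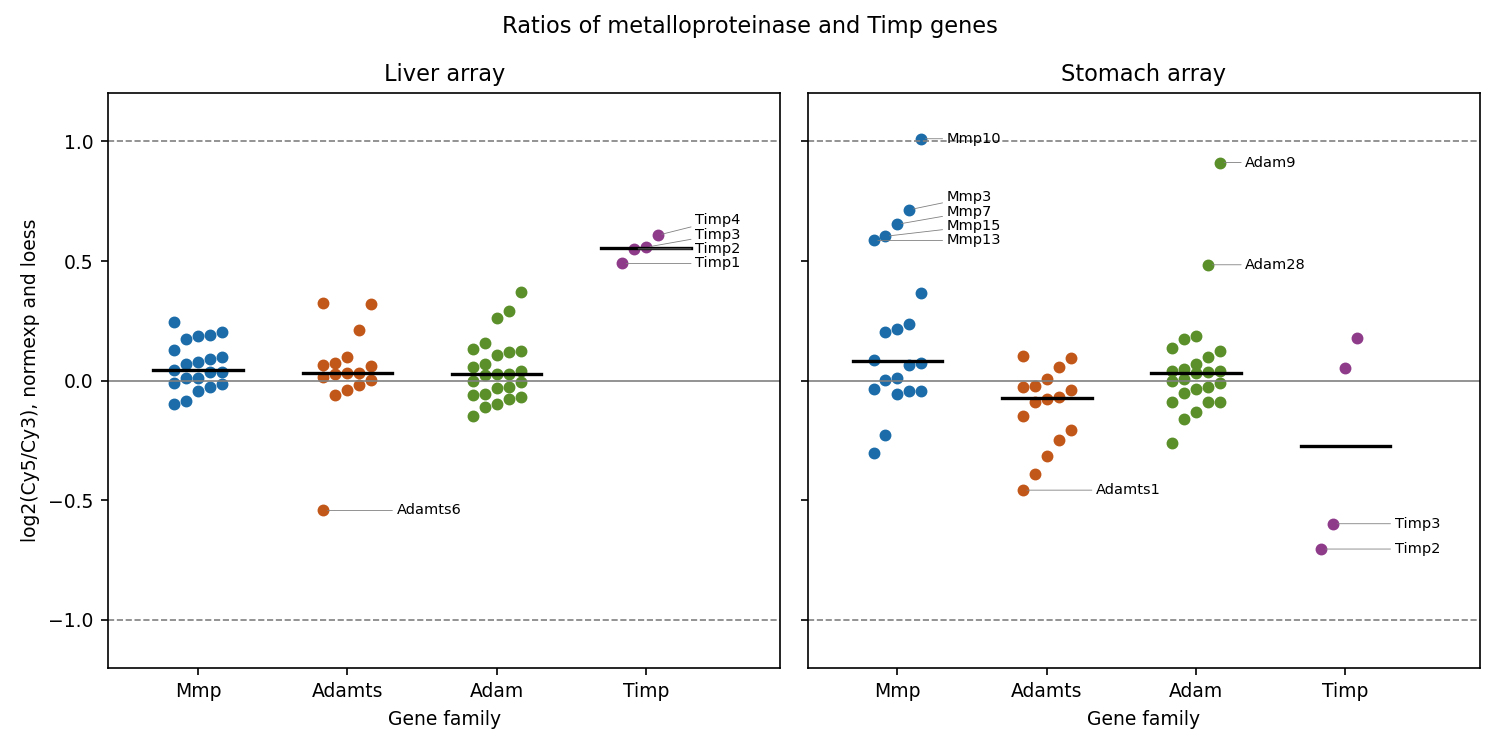
Each point is the log2(Cy5/Cy3) ratio of 1 measured member gene after normexp background correction and loess, by family, on the liver array (left) and the stomach array (right); black bars are family medians and dashed lines mark 2-fold. In liver the 4 Timp points stand together between 0.49 and 0.61 above families near 0, and in stomach Mmp10 alone passes 2-fold while Timp2 and Timp3 lie on the Cy3 side.

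In stomach, the inhibitors did not move together. Timp2 and Timp3 were brighter in Cy3, by 1.63 and 1.51 times, Timp1 and Timp4 lay near 0, and several Mmp genes and Adam9 were brighter in Cy5. Timp2 had signals of 9.24 in Cy3 and 8.54 in Cy5, a ratio of -0.70 (error 0.20). Timp3 had 8.89 and 8.29, a ratio of -0.60 (error 0.21). Timp1 had 6.99 and 7.17 (0.18, SD 0.21 between 3 probes), and Timp4 had 7.47 and 7.52 (0.05, error 0.40). The ratios of Timp2 and Timp3 are more than 2 times their errors, and those of Timp1 and Timp4 are within theirs. The Timp1 probes differed. The brightest read 0.37 (scanner error 0.22), above its error, and the others, both dim, 0.20 and -0.04 (errors 2.44 and 1.58). With median centring in place of loess, Timp2 shrank to -0.21 and Timp3 to -0.15, still on the Cy3 side.

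Smooth muscle markers moved in the direction of Timp2 and Timp3. None of 6 markers had a ratio above 0, 5 were at least 2-fold brighter in Cy3, the median was -2.04, and the summed signal was 15330 in Cy3 and 3734 in Cy5. Gastric gland markers had a median of -4.13 and squamous epithelium markers -1.62. Endothelium markers had a median of -0.08, with 5 of 7 below 0 and summed signals of 1487 and 1123. Neutrophil markers had a median of -0.09, with 5 of 8 below 0 and summed signals of 2025 and 1031. Fibroblast markers had a median of 0.17, with 6 of 8 above 0 and summed signals of 3354 and 3011, although Dcn was at -0.48. The part of these tissues and cells in the Timp ratios was not tested.

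Only Mmp10 among the 65 measured members was at least 2-fold brighter in Cy5, where 0.873% of all 25322 genes were, and none was 2-fold brighter in Cy3, where 1.41% were. Mmp10, a stromelysin made by epithelial cells, had a signal of 6.99 in Cy3 and a ratio of 1.01 (error 0.42), at the threshold itself. It was the 213th gene from the Cy5 side. The stromelysin Mmp3 had 6.48 and 7.20 (0.71, error 0.87). Mmp7, or matrilysin, an epithelial protease that is a target of Wnt signalling, had 8.22 and 8.87 (0.65, error 0.22). Mmp15 had 8.12 and 8.72 (0.60, error 0.23). Mmp13, a collagenase, was not well above background in Cy3 (6.27) and had 6.85 in Cy5. Its ratio was 0.59 (error 1.39), and 0.43 with median centring. Of these, the ratios of Mmp10, Mmp7 and Mmp15 exceeded 2 times their errors. That of Mmp3 was below the scanner error, which belongs to the scanner software's ratio of 1.61 and is smaller than that ratio.

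The other Mmp genes in stomach went both ways around a family median of 0.08, with 14 of 20 measured genes above 0 against 50.2% of all genes. Mmp14 was split between its probes: the probe at 49308207 to 49308266 on chromosome 14 had 0.61 and the probe at 49307013 to 49307072 had -0.13, for a gene value of 0.24 (SD 0.52). Mmp2 had 7.27 and 7.36 (0.09, error 0.44) and Mmp9 6.73 in both channels (0.00, SD 0.18 between 2 probes). Mmp12, or macrophage elastase, had 6.39 and 6.35 (-0.04, error 1.85), and macrophage markers a median of 0.12. The lowest was Mmp21, with 8.82 and 8.52 (-0.30, error 0.20), whose sign turned with median centring (0.16).

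Adam9, a widely expressed membrane disintegrin and protease, was the second highest member in stomach. Its signals were 10.61 in Cy3 and 11.52 in Cy5, a ratio of 0.91 (error 0.18), and it was the 287th gene from the Cy5 side. In liver the same probe had 9.73 and 9.66 (-0.07, error 0.17). Adam28, a member first known from lymphocytes, had 0.48 in stomach with probes that disagreed (SD 0.51): they read 1.06, 0.26 and 0.13. B and T cell markers had a stomach median of 0.00, with 3 of 6 above 0. The sheddases did not stand out, with 0.14 for Adam17 (SD 0.12 between 2 probes) and 0.00 for Adam10 (error 1.23). Adam15, another of these, had 0.17 (SD 0.09 between 2 probes). Mean scanner errors were 0.40 for Adam17 and 1.14 for Adam15. Adam8, a protease of white blood cells, had 8.45 and 8.52 (0.07, error 0.21). Adam12 was the lowest at -0.26 and was not well above background in Cy5. The family median of 0.03 turned to -0.12 with median centring.

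Of the Adamts genes in stomach, 4 of 16 were above 0, against 50.2% of all genes, and the median was -0.07. It kept this sign under the 6 other settings. Adamts1, which cleaves versican and aggrecan, had 8.24 in Cy3 and 7.78 in Cy5 (-0.46, SD 0.40 between 2 probes), with probes at -0.74 and -0.18, of which the first was the brighter. Adamts6 had -0.39 (error 3.46), Adamts18 7.28 and 6.97 (-0.32, SD 0.05 between 2 probes, with a mean scanner error of 0.54), Adamts15 9.46 and 9.21 (-0.25, error 0.18, but 0.31 with median centring) and Adamts4 -0.21 (error 1.37). Adamts3, a procollagen processing enzyme, was the highest at 0.10 (SD 0.15 between 3 probes, with a mean scanner error of 2.28). The Adamts1 probes thus disagreed in size, those of Adamts18 were alike, and the direction of Adamts15 depended on the normalization.

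The authors' deposited stomach lists held 9 of the 123 member probes. Of these, 6 were brighter in Cy5 (4.88% of member probes against 4% of all gene spots) and 3 in Cy3 (2.44% against 3.33%), shares close to those of all gene spots. The first were Mmp10 (2.92-fold), Adam28 (2.56-fold, 1 of 3 probes), Adam9 (1.92-fold), Mmp7 (1.73-fold), Mmp15 (1.63-fold) and Mmp14 (1.56-fold, 1 of 2 probes), and the second Adamts1 (1.77-fold, 1 of 2 probes), Timp2 (1.77-fold) and Timp3 (1.57-fold).

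**Figure D2:**
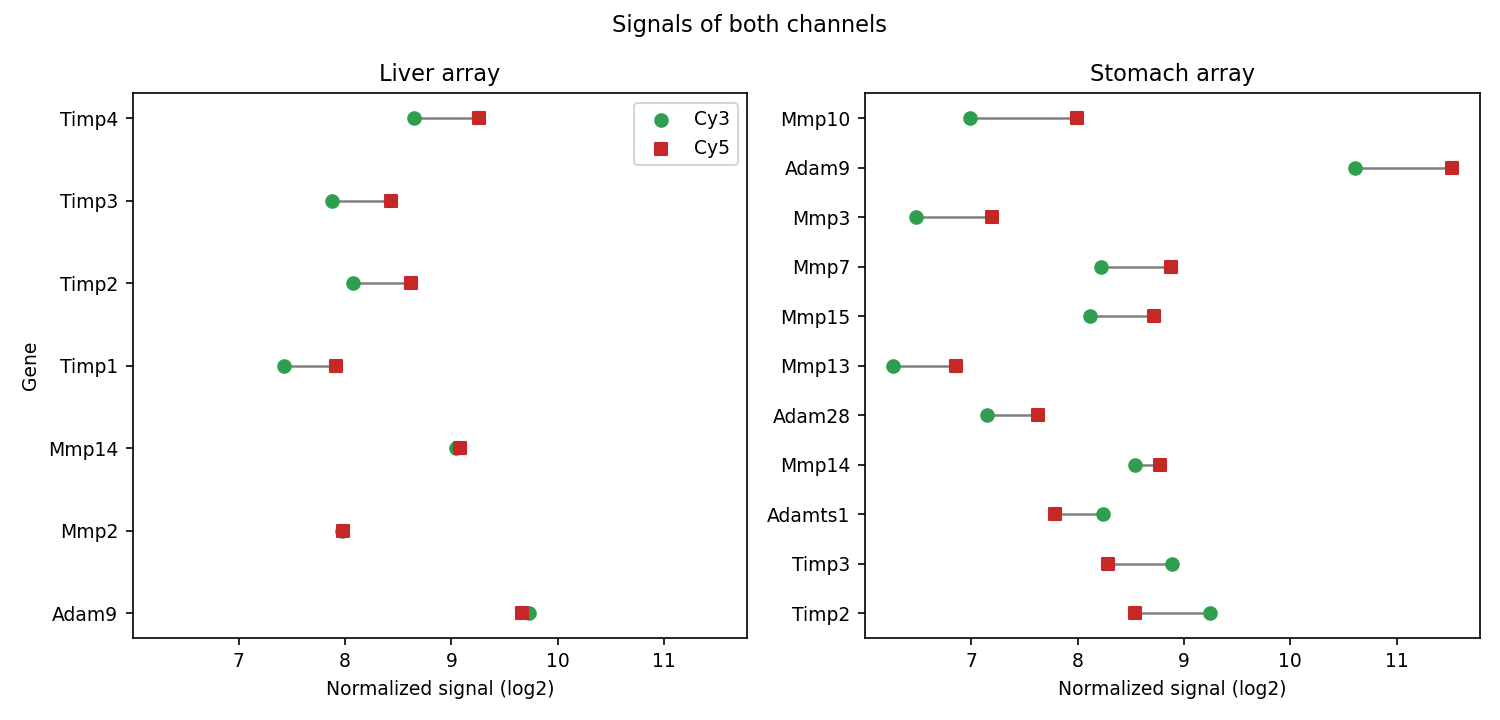
Normalized log2 signals in Cy3 (circles) and Cy5 (squares) of chosen member genes on the liver array (left) and the stomach array (right), joined per gene; genes are not comparable with each other in level. In liver the Timp genes are separated by 0.49 to 0.61 log2 units while Mmp14, Mmp2 and Adam9 overlap or nearly so, and in stomach Mmp10 is separated by 1.01 and Timp2 runs the other way, from 9.24 to 8.54.

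In lung, the deposited lists held 22 of the 123 member probes, for 19 of 70 genes, and 51 genes have no lung value here. Brighter in Cy5 were 8 probes (6.50% of member probes, against 5.51% of all gene spots) and brighter in Cy3 14 probes (11.4% against 9.78%), again close to the shares over all gene spots. By family, the Cy5 side held 5 Mmp genes and 2 Adam genes, and the Cy3 side 2 Mmp, 4 Adamts, 4 Adam and 2 Timp genes. Every listed Adamts and Timp gene was thus on the Cy3 side. The values below are the authors' deposited signals and ratios, without an error.

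Mmp7 had the largest lung ratio of all members in the authors' deposited table, with a signal of 5030 in Cy3 and 99100 in Cy5, or 19.5-fold. The next in that channel were Adam10, a sheddase of Notch receptors (205 and 625, 3.05-fold), and Mmp23 (1370 and 4160, 3.04-fold). Both Mmp14 probes were listed, at 2.88-fold (11700 and 33800) and 2.10-fold (868 and 1830). Macrophage elastase Mmp12 had 299 and 774 (2.59-fold) and the neutrophil collagenase Mmp8 245 and 608 (2.48-fold). Adam9 had 17900 and 38500 (2.15-fold). Mmp7 was thus far above the other 6 genes of its side, which lay between 2.15-fold and 3.05-fold. Of the lung listings of cell markers, 1 of 7 macrophage markers and 1 of 8 neutrophil markers were brighter in Cy5 and none in Cy3.

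On the Cy3 side of the deposited lung lists, Timp2 led with 44300 in Cy3 and 4990 in Cy5, or 8.89-fold. Adamts8, a protease abundant in lung, followed with 2 of 3 probes at 7.33-fold (3950 and 538) and 6.58-fold (2330 and 355). Adam33, a gene of mesenchymal cells, was listed by 1 of 3 probes (972 and 154, 6.32-fold). Timp3 had 36400 and 5820 (6.25-fold) and Mmp3 2600 and 438 (5.94-fold). Mmp11, a stromelysin of stromal cells, had 2360 and 586 (4.02-fold), and Adamts5 920 and 261 (3.52-fold, 1 of 2 probes). Adamts10, which binds fibrillin microfibrils, was listed by 2 of 3 probes at 3.55-fold and 2.34-fold. Adam8 (2.55-fold), Adam15 (2.24-fold, 1 of 2 probes), Adam19 (2.18-fold, 1 of 3 probes) and Adamts1 (2.08-fold, 1 of 2 probes) were nearest to the 2-fold limit of the lists.

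Markers of several cell types of normal lung were on the same side as these genes. All 7 endothelium markers, 4 of 6 smooth muscle markers and 4 of 6 lung epithelium markers were listed as brighter in Cy3 and none of them in Cy5. Fibroblast markers were split, with 1 of 8 in Cy5 (Col1a1, 2.81-fold) and 3 in Cy3, and 3 of 7 squamous epithelium markers were listed in Cy5. The part of these cells in the lung ratios was not tested.

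**Figure D3:**
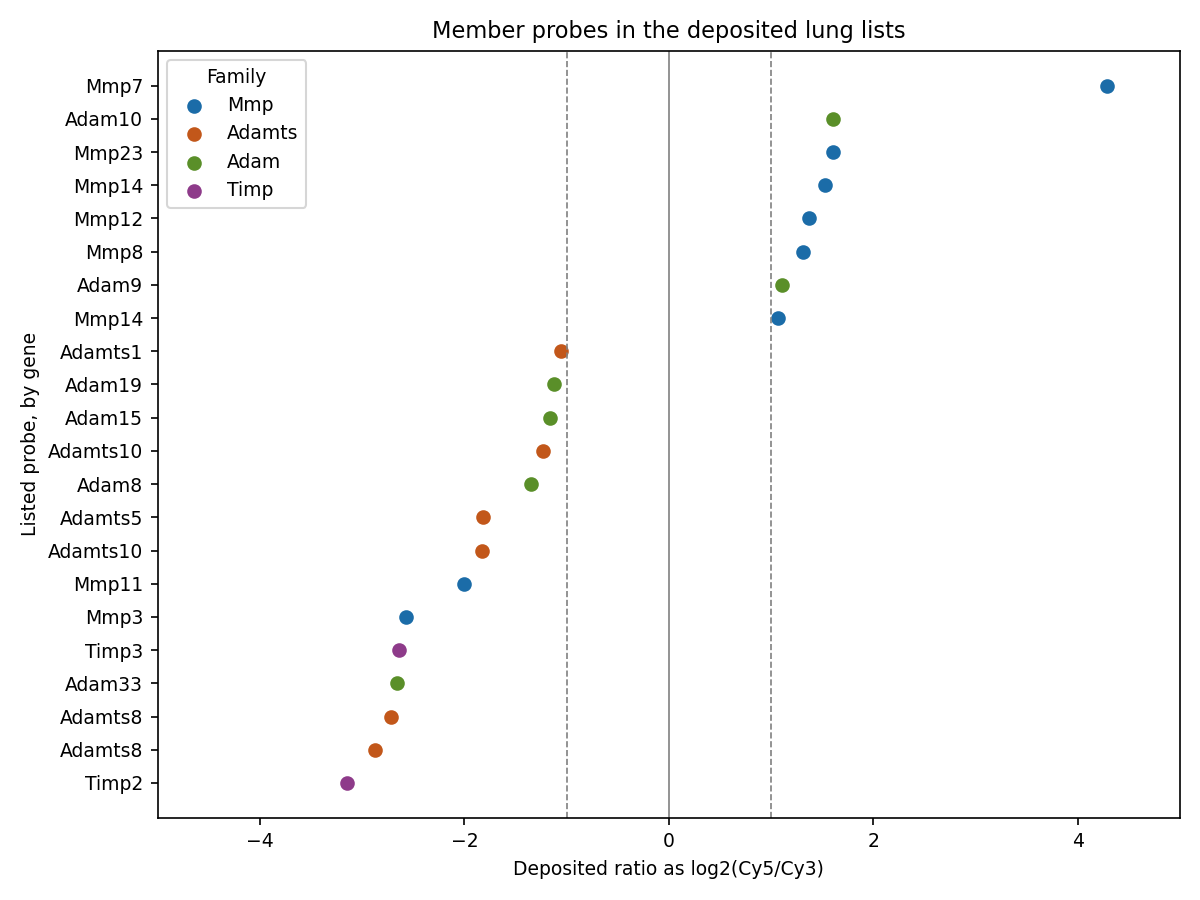
Deposited lung ratios, as log2(Cy5/Cy3), of the 22 listed member probes, ordered by value and coloured by family; dashed lines mark 2-fold, below which no spot is listed. Mmp7 stands alone at 4.29, and all listed Adamts and Timp probes lie on the Cy3 side, down to Timp2 at -3.15.

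Where the same probe was listed in stomach and lung, the channel was the same. These were 6 probes, or 66.7% of the 9 listed in stomach and 27.3% of the 22 listed in lung: Mmp7, Mmp14 and Adam9 in Cy5, and Adamts1, Timp2 and Timp3 in Cy3. Over all gene spots listed in both organs, 85% of 1228 had the same channel, so the members followed what most shared spots did. Liver differed: Timp2 and Timp3, the only members listed there and in another organ, were brighter in Cy5 in liver and in Cy3 in stomach and lung. Over all gene spots listed in liver and lung, 24.9% of 342 had the same channel, and in liver and stomach 49.3% of 225. In deposited log2 ratios, Timp3 had 0.80 in liver, -0.65 in stomach and -2.64 in lung, and Timp2 0.63, -0.82 and -3.15. The difference between organs was not tested, since each had 1 array. Timp1 and Timp4 were listed in liver only.

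**Figure D4:**
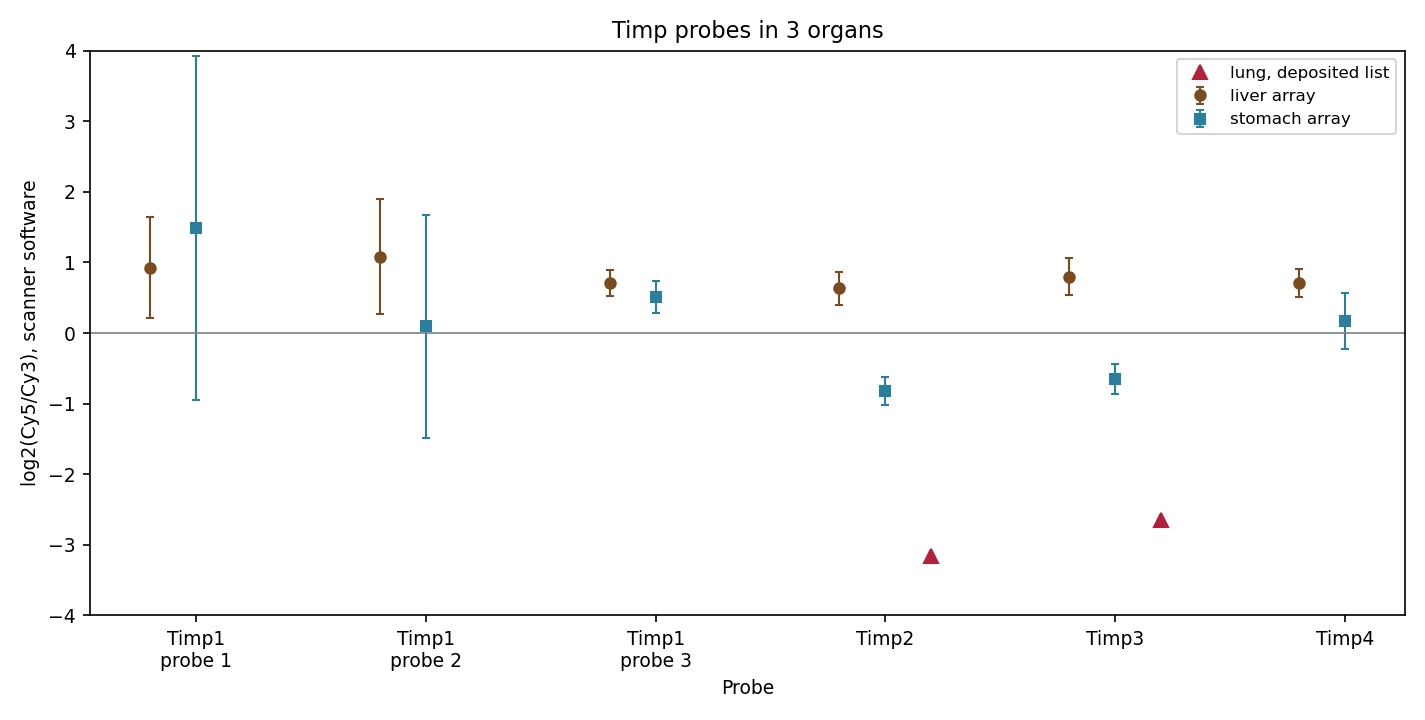
Scanner software's log2(Cy5/Cy3) of each of the 6 Timp probes on the liver (circles) and stomach (squares) arrays, with bars for the scanner software's error, and the deposited lung ratio where listed (triangles). Timp2 and Timp3 are at 0.63 and 0.80 in liver, below 0 in stomach, and at -3.15 and -2.64 in lung.

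Of the 21 Mmp genes, 8 are neighbours on 1 chromosome. Mmp13, Mmp12, Mmp3, Mmp1a, Mmp10, Mmp8, Mmp20 and Mmp7 have probes between 7280046 and 7695493 on chromosome 9 in the deposited coordinates, for which no genome build is stated. In stomach, Mmp10, Mmp3, Mmp7 and Mmp13 of this cluster were on the Cy5 side as above. Mmp12 had -0.04, Mmp1a -0.06 (SD 0.01 between 2 probes, with a mean scanner error of 0.58) and Mmp20 0.08 (error 1.33). Mmp8 was not measured there. In liver, the 8 genes lay between -0.09 (Mmp20, error 0.69) and 0.20 (Mmp8, not well above background in Cy3). In the deposited lung lists, Mmp7, Mmp12 and Mmp8 were brighter in Cy5 and Mmp3 in Cy3. The genes of the cluster therefore did not take 1 direction. Mmp7 was listed in Cy5 in both stomach and lung, while Mmp3 was on the Cy5 side in stomach and on the Cy3 side in lung. In stomach the Mmp3 ratio of 0.71 was below the scanner error of 0.87, and the scanner software's ratio of 1.61 was above it.

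The promoters of this cluster are shown because it holds the members with the largest Cy5 ratio in stomach (Mmp10) and in lung (Mmp7), and those of Timp2 and Timp3 because they had the opposite channel there. Each sequence is the 100 bases before the transcription start in RefSeq on the build GRCm38.p6, written 5′ to 3′ on the gene's strand. Capitals mark TGANTCA and TATAAA, searched on both strands, and the motifs do not overlap here. TGANTCA holds the letters of an AP-1 site with any base (N) allowed in the middle, and is its own reverse complement. TATAAA holds the letters of a TATA box. The windows are chr9:7502242-7502341 (Mmp10), chr9:7445722-7445821 (Mmp3), chr9:7691990-7692089 (Mmp7), chr9:7272414-7272513 (Mmp13), chr9:7347274-7347373 (Mmp12), chr9:7558329-7558428 (Mmp8), chr9:7464041-7464140 (Mmp1a) and chr9:7628131-7628230 (Mmp20), all on the plus strand, chr11:118355412-118355511 (Timp2, minus strand) and chr10:86300312-86300411 (Timp3, plus strand).
Mmp10: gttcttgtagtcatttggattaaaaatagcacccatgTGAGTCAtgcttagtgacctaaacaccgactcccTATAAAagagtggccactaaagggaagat
Mmp3: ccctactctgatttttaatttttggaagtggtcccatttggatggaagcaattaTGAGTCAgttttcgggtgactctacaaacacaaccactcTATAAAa
Mmp7: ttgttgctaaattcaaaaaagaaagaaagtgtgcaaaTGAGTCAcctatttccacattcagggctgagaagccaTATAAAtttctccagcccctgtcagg
Mmp13: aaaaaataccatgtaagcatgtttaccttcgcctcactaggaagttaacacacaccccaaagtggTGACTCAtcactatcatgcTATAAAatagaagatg
Mmp12: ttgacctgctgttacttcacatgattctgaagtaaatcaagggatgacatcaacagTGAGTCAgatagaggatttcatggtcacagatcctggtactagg
Mmp8: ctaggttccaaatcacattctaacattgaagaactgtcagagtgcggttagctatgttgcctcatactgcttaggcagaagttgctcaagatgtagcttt
Mmp1a: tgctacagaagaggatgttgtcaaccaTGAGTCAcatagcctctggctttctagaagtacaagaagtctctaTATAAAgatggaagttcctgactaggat
Mmp20: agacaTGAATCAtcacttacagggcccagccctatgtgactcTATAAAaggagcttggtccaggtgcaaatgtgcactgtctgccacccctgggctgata
Timp2: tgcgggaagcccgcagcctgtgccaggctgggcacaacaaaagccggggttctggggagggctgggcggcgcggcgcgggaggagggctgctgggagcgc
Timp3: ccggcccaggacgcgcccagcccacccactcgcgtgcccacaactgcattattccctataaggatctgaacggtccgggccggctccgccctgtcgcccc

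Searched over 250 bases before the start, TGANTCA was in 7 of 10 windows of the cluster (7 of 8 genes). It was in 10 of 46 windows of all member genes found in the promoter table (41 genes) and in 6.75% of 32851 windows of all genes. TATAAA was in 6 of 10, 10 of 46 and 12.4%. The 46 member windows include those of the cluster, which hold most of the member windows with either motif. In the windows shown, TGANTCA begins 63 bases before the start in Mmp10 and Mmp7, 46 in Mmp3, 35 in Mmp13 and 44 in Mmp12. It begins 73 before in Mmp1a and 95 in Mmp20, where the middle base is A and not G or C as in the other matches shown. Neither motif is in the window of Mmp8, Timp2 or Timp3. The Timp2 and Timp3 windows are 75% and 69% G and C, against 38% to 51% in the windows shown for the Mmp genes of the cluster. This does not separate the families. Windows found for Mmp genes outside the cluster have 54% to 92%, among them Mmp15 with 69%, and those of Timp1 and Timp4 have 65% and 49%. Mmp1a and Mmp20 hold both motifs and had ratios near 0 in stomach, with scanner errors of 0.58 (mean of 2 probes) and 1.33, and no lung listing. Mmp7 and Mmp3 hold both motifs and were listed in opposite channels in lung, and Mmp8 holds neither in its window and was listed in Cy5 there. Mmp7 and Mmp12 each have a further start in the table, whose 100-base window holds no match. The part of these motifs in any ratio was not tested.

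**Figure D5:**
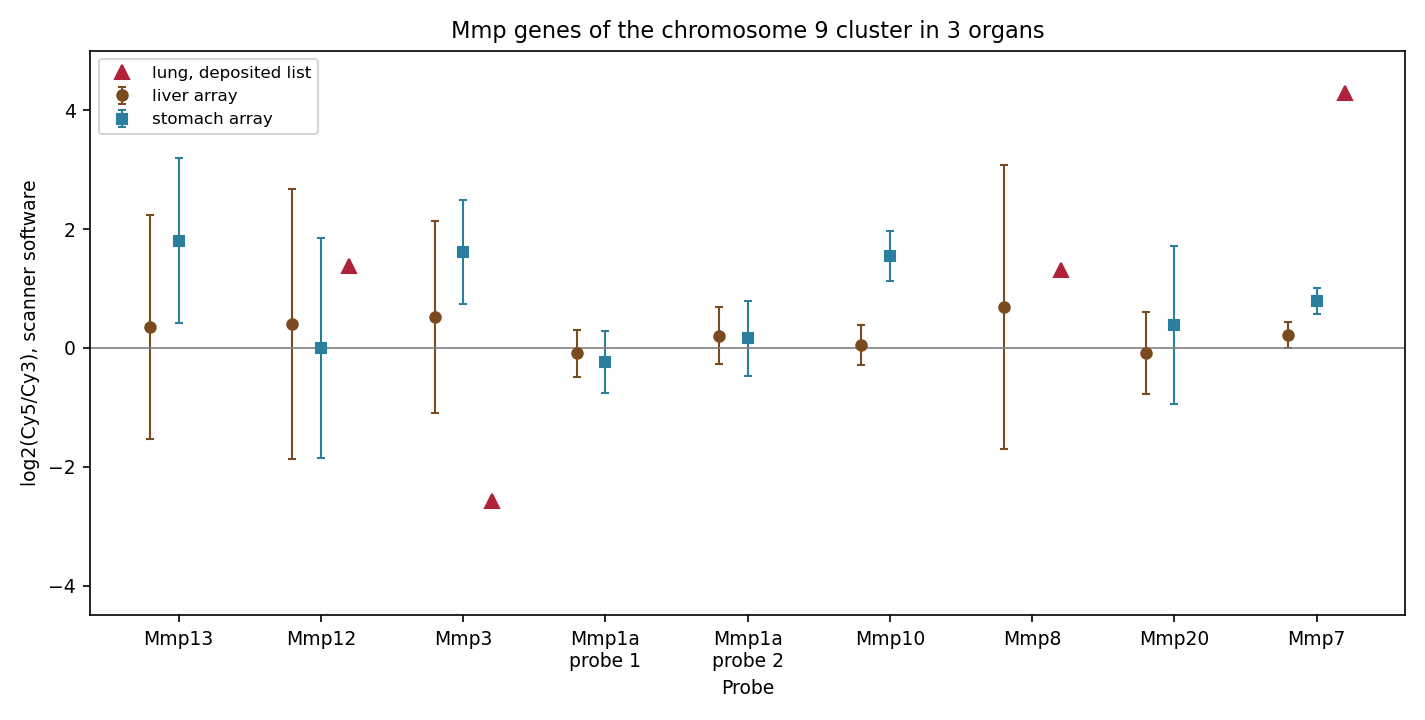
Scanner software's log2(Cy5/Cy3) of each probe of the chromosome 9 Mmp genes, ordered along the chromosome, on the liver (circles) and stomach (squares) arrays, with the scanner software's error as bars, and the deposited lung ratio where listed (triangles). Mmp7 reaches 4.29 in lung and Mmp3 -2.57, and the wide bars of Mmp13, Mmp12 and Mmp8 are those of dim spots.

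The transcription factors and cytokines known to induce Mmp genes were mixed. Of 13 listed inducers, 6 were above 0 in liver (median -0.01) and 8 in stomach (median 0.03), none was 2-fold apart on either array, and the deposited lung lists held 6 in Cy5 and 4 in Cy3. The largest in stomach were Ets2 (0.60, error 0.19) and Fos (0.50, error 0.21), a subunit of AP-1. In lung, Il1a was listed by 2 probes at 10.7-fold and 29.5-fold brighter in Cy5, while Il1b was 2.5-fold brighter in Cy3. Jun, the partner of Fos, was 4.97-fold brighter in Cy3. Fos (2.31-fold), Fosl1 (3.17-fold) and Junb (2.03-fold) were listed in Cy5, so the AP-1 genes were on both sides.

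Among partners of matrix proteolysis, such as the plasminogen system, the proprotein convertases and cathepsins, 14 of 30 measured genes were above 0 in liver (median -0.03) and none was 2-fold apart. In stomach 17 of 29 were above 0, with Ctss, a cathepsin of antigen-presenting cells, at 1.36 (error 0.20) and Furin, the convertase that activates Mmp14, Mmp11 and several Adam precursors, at -3.72 (error 0.33, 1 probe measured). Furin was 3.27-fold brighter in Cy5 in the deposited lung lists, so its side differed between these organs. The lung lists held 7 partners in Cy5 and 3 in Cy3. The first included Plat (3.65-fold and 5.97-fold over 2 probes) and Plaur (3.71-fold and 5.50-fold over 2 probes), an activator and a receptor of the plasminogen system, and the second Reck, a membrane inhibitor of Mmp14 and Adam10 (4.75-fold).

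The list of substrates shares Col1a1, Col1a2, Col3a1, Dcn and Lum with the fibroblast markers. In liver 16 of 22 substrates were above 0, with a median of 0.10, and in stomach 12 of 22, with a median of 0.04. None was 2-fold apart on either array, and 3 were listed in Cy5 and 4 in Cy3 in lung. Of the ligands and receptors that Adam proteins shed, 5 of 16 were above 0 in liver (median -0.10) and 11 of 16 in stomach (median 0.11), where Areg, a ligand of the EGF receptor, had 0.65 (error 0.20). In lung 8 were listed in Cy5 and 2 in Cy3. Those in Cy3 were the receptors Notch1 (3.78-fold and 2.24-fold over 2 probes) and Notch2 (2.52-fold, 1 probe listed). Areg (6.58-fold) and Btc (7.21-fold), another ligand of that receptor, were among those in Cy5, as was Adam10 but not Adam17, which has no lung value here.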

How the data were processed

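Liver, stomach and lung tissue pairs were hybridised as 500 ng of total RNA each, 1 array per organ, per the labels' protocols. Agilent Feature Extraction 8.5.1.1 read the scans, per the submitters' processing notes and the file headers. The deposited intensity columns hold the mean spot and median background intensity of both channels, not normalized, besides background- and dye-corrected intensities, per the file headers. The deposited log10 ratio is Cy5 over Cy3, per the file headers. The deposited error and p-value of a spot come from that software; the p-value covers 1 spot and was used only to describe the authors' lists. The authors' deposited table lists log10 ratios and signals for spots chosen in each organ. Its liver and stomach ratios equalled those of the same spot in the scanner files. Lung spots were named by spot number through those files. At 1776 of 6352 lung spots the Cy5 signal stood in another column than headed, and it was matched by the ratio of signals within 0.01 on the log10 scale.

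In limma 3.58.1 (R 4.3.3), normexp with offset 50 corrected the background, loess with controls at weight 0 normalized ratios within each array, and Aquantile scaled channel levels. The steps were tested on simulated data. Known changes were placed in bright spots only, so their recovery at dim spots was not tested. The offset makes ratios of dim genes smaller. Outlier spots and spots saturated in both channels were left out, and probes not well above background in either channel were dropped. A gene's value is the mean over its measured probes. Genes with a log2 ratio of 1 or more in size counted as 2-fold apart. Tables and plots were made in Python 3.11.15 (numpy 2.4.6, pandas 2.3.3, matplotlib 3.10.9). Of the 123 member probes, 96 were named by accession and 27 by symbol in a RefSeq table of GRCm38.p6, and 1 (Adam6) is now Adam6a. Having 1 array per organ limits the precision.

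The members and lists were chosen with earlier results of these data known. Genes named were those 2-fold apart on an array, the lung members (the 8 largest and 4 smallest in size), the highest and lowest of each family on each array, all Timp genes, 14 other fixed members and pathway genes at least 2-fold apart. Mmp1a, Mmp8, Mmp13, Mmp20, Adam28, Adamts10, Adamts18 and the pathway or marker genes under 2-fold were named after their values were seen. Alternatives changed the offset, the ratio, the normalization, the filter and the choice of probe.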

Additional observations from a re-analysis of the deposited data

Results flagged for a closer look

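Timp3 and Timp2 had opposite channels in different organs. The deposited log2(Cy5/Cy3) of Timp3 was 0.797 in liver, -0.654 in stomach and -2.64 in lung. That of Timp2 was 0.634 in liver, -0.821 in stomach and -3.15 in lung. With 1 array per organ, the difference between organs was not tested.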

How the results depend on the processing

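Of the counts and family medians under alternative settings, 66 values stayed within their bounds and 10 moved. The Adam median, close to 0, changed sign with median centring, from 0.026 to -0.016 in liver and from 0.031 to -0.115 in stomach. With the scanner software's ratio, 1 member in liver was 2-fold brighter in Cy5 (Adam33) and 1 in Cy3 (Adamts6), against 0 in both, and the liver Timp median was 0.754. With median centring that median was 0.783. In stomach the count of members 2-fold brighter in Cy5 was 2 with an offset of 16 (Mmp10 and Mmp3), 4 with the scanner software's ratio (Mmp10, Mmp3, Mmp13 and Adam28), 4 with median centring (Mmp10, Adam9, Mmp15 and Mmp7) and 2 with the brightest probe (Mmp10 and Adam28), against 1. The stomach Timp median became 0.0 with median centring. At 3-fold or more, 3 genes were in the Cy5 lung list, against 7, and 8 in the Cy3 list, against 12. The causes were not tested. Of 34 named genes, 19 in liver and 26 in stomach kept their sign under every setting. Over all genes, 541 were 2-fold brighter in Cy5 and 420 in Cy3 in liver with the scanner software's ratio, against 39 and 18. In stomach these were 1093 and 1049, against 221 and 358. Joining lung spots by a gene name in the deposited table was not run, since the table names spots by number and not by gene. No paired analysis was possible because each organ had 1 array, and no replicate could be left out. Dim signals limit most Mmp, Adamts and Adam ratios.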
